A study of Saccharomyces cerevisiae with 4 samples.

Results

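The 9 genes described here encode core proteins of autophagy in the budding yeast Saccharomyces cerevisiae: ATG1, ATG13, ATG17, ATG14, ATG9, ATG8, ATG7, ATG5 and ATG19. They were listed by gene identifier out of 7126 features with read counts, with earlier results of these data known. All 9 had enough reads to be tested. Poly(A) RNA was sequenced from a strain with mutations in the nuclear export receptors Xpo1 and Mex67 (xpo1-1 mex67-5, n = 2 libraries) and from a wild-type strain (n = 2 libraries). Both alleles are known as temperature-sensitive. Cultures of both strains grew overnight at 25 °C and spent 1 h at 37 °C before harvest, a treatment the wild type shared. Strains with a single mutation and cultures without the shift were not analysed here. The part of each allele, of any other difference between the strains and of the temperature therefore cannot be told apart. The labels give neither the strain background nor whether the libraries of a strain are separate cultures. The p-values below therefore rest on a spread between libraries that may be technical only.

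Autophagy carries cytoplasm and organelles into the vacuole inside a double membrane, the autophagosome. In yeast it is induced when nutrients run short and the kinase complex TORC1 is inactive. The Atg1 kinase and its partners start the process, Atg9 vesicles and a lipid kinase complex build the membrane, and the small protein Atg8 is linked to that membrane by enzymes that resemble those of ubiquitin. The same machinery works in growing cells in the cytoplasm-to-vacuole pathway, which delivers vacuolar hydrolases selected by the receptor Atg19.

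In the mutant, 8 of the 9 genes rose and 1, ATG5, fell. The largest rises were in ATG8 (5.62-fold) and ATG1 (4.44-fold), and the smallest in ATG17 (1.17-fold). Between them, ATG9, ATG14, ATG19, ATG7 and ATG13 rose 2.06-fold to 2.60-fold. A gene was called where the adjusted p of edgeR's quasi-likelihood test (Benjamini-Hochberg over 6563 genes) was under 0.05. Most of the transcriptome passed that threshold: 46.8% of all genes tested were called higher and 46.3% lower, 93.1% in all. A called log2 change of at least 1 upward was found in 7 of the 9 genes and in 27.8% of all genes, and downward in 0 of the 9 and 25.5% of all genes. The libraries of the strains did not overlap in any of the 9, with 8 above and 1 below the wild type, and in 96.4% of all genes tested, 48.5% above and 48.0% below. The median log2 change was 1.27 over the 9 genes and 0.01 over all genes tested. Because the 9 genes were picked with earlier results of these data known, these shares describe them and are not a test of the group.

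**Figure D1:**
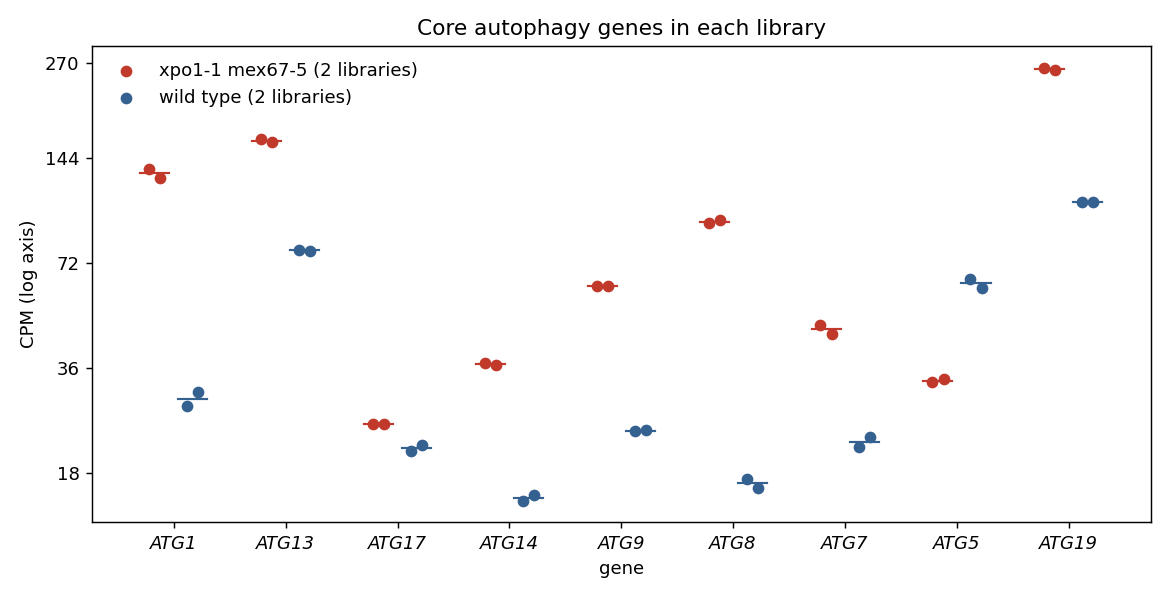
Level (CPM, log axis) of the 9 genes in each of the 4 libraries, mutant left of wild type, with a bar at each mean. The mutant points lie above the wild-type points in 8 genes and below them in ATG5, and ATG17 has the smallest gap.

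The depth behind these values was 62205252 and 50843634 gene reads in the mutant libraries, against 49865570 and 49321384 in the wild-type libraries. The 9 genes had between 745 reads (ATG14 in wild-type replicate 1) and 16461 reads (ATG19 in mutant replicate 1) per library. Levels are given as CPM, reads per 1000000 of the library size after TMM scaling, so they are shares of a library and blind to how much messenger RNA a cell holds in all. Of the mutated genes, MEX67 (log2 change 3.64, SE 0.04) was higher in the mutant and CRM1, which encodes Xpo1, was slightly lower (-0.21, SE 0.03). Neither tests the genotype, since a temperature-sensitive allele is still transcribed. None of the 9 genes overlaps another gene of the RefSeq annotation or has an intron there. Of the 7126 counted features, 1078 had no match in that annotation, so overlap with those was not checked. No 50-base stretch of the 9 genes, the length of a read, occurs a second time in the R64 genome.

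The promoters of ATG8, ATG9 and ATG5 are printed because those of ATG8 and ATG9, which rose, share matches to the same pair of motifs, and that of ATG5 belongs to the gene that fell. Each sequence runs from 250 bases before the start codon through the first 50 bases of the coding region, 5′ to 3′ on the strand of the gene, and was read from the RefSeq copy of build R64. Capitals mark matches, on either strand, to 6 motifs. The core of the site of the repressor Ume6 was searched as GGCGGC, and the stress response element, bound by Msn2 and Msn4, as AGGGG. The core of the post-diauxic shift element, bound by Gis1 and Rph1, was searched as AGGGAT, and the site of GATA factors such as Gln3 and Gat1 as GATAAG. Part of the heat shock element, an inverted repeat bound by Hsf1 and here called the heat shock unit, was searched as TTCNNGAA. The core of the Gcn4 site was searched as TGACTC.
ATG8 (chrII:80682-80981, minus strand): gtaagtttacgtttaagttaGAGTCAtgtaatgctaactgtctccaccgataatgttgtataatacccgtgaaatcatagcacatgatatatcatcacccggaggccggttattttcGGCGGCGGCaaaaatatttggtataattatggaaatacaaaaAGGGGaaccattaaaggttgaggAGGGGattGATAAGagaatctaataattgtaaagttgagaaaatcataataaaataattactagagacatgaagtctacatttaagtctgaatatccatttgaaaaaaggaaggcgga
ATG9 (chrIV:184675-184974, plus strand): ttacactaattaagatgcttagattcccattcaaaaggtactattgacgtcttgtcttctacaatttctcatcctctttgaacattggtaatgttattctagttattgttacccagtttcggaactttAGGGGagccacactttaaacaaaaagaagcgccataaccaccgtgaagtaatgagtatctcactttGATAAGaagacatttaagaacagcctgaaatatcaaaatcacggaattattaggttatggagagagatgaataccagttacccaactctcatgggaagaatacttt
ATG5 (chrXVI:271060-271359, plus strand): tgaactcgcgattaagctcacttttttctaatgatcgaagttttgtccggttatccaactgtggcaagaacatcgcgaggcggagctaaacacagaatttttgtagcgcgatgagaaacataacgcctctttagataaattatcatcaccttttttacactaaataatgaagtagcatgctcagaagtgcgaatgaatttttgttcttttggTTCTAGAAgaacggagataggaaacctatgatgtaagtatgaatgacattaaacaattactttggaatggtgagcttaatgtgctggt

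The Atg1 kinase complex, which receives the signal from TORC1, had 3 of the 9 genes. ATG1 (YGL180W, chromosome VII, 160065 to 162758) encodes the kinase itself. It had 134 and 127 CPM in the mutant libraries, against 28.0 and 30.8 CPM in the wild-type libraries. The mutant levels were all above those of the wild type, a log2 change of 2.15 (SE 0.05; edgeR adjusted p = 1.2e-17), and 87.7% of all genes tested had a smaller or more negative change. ATG13 (YPR185W, chromosome XVI, 907218 to 909434) encodes the regulatory subunit that TORC1 phosphorylates. Its levels were 163 and 159.9 CPM in the mutant and 78.6 and 78.1 CPM in the wild type. The groups did not overlap and replicates of a strain lay close together, with a log2 change of 1.04 (SE 0.04; edgeR adjusted p = 9.8e-15). ATG17 (YLR423C, chromosome XII, 971917 to 973170) encodes the scaffold on which the complex assembles in starved cells. It had 24.9 and 25.0 CPM in the mutant, against 20.8 and 21.6 CPM in the wild type. That difference was small but larger than the spread between replicates, a log2 change of 0.23 (SE 0.06; edgeR adjusted p = 8.0e-04), near the middle of the transcriptome, with 55.8% of genes below it.

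The genes of the 2 proteins that bind Atg17 in that scaffold went in opposite directions. ATG29 had 49.8 and 45.3 CPM in the mutant, against 8.82 and 9.09 CPM in the wild type, a 5.32-fold rise. ATG31, whose protein links Atg29 to Atg17, had 5.06 and 4.48 CPM in the mutant, against 35.0 and 34.5 CPM in the wild type, and was 7.24-fold lower. ATG31 was thus the autophagy gene with the largest fall among the 43 examined. ATG29 overlaps the end of SET6 by 24 bases, where reads cannot be told apart; SET6 also rose (log2 change 2.09). Per kilobase of coding length, ATG29 stood at 3.90 and 3.55 times ATG17 in the mutant libraries, and at 0.826 and 0.821 times ATG17 in the wild-type libraries. ATG31 stood at 0.431 and 0.381 times ATG17 in the mutant, and at 3.56 and 3.38 times ATG17 in the wild type. The order of the 3 scaffold genes per length was therefore reversed between the strains, with ATG31 last in both mutant libraries and first in both wild-type libraries. ATG11, the scaffold of the complex in selective autophagy, rose slightly (log2 change 0.40, SE 0.04).

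**Figure D2:**
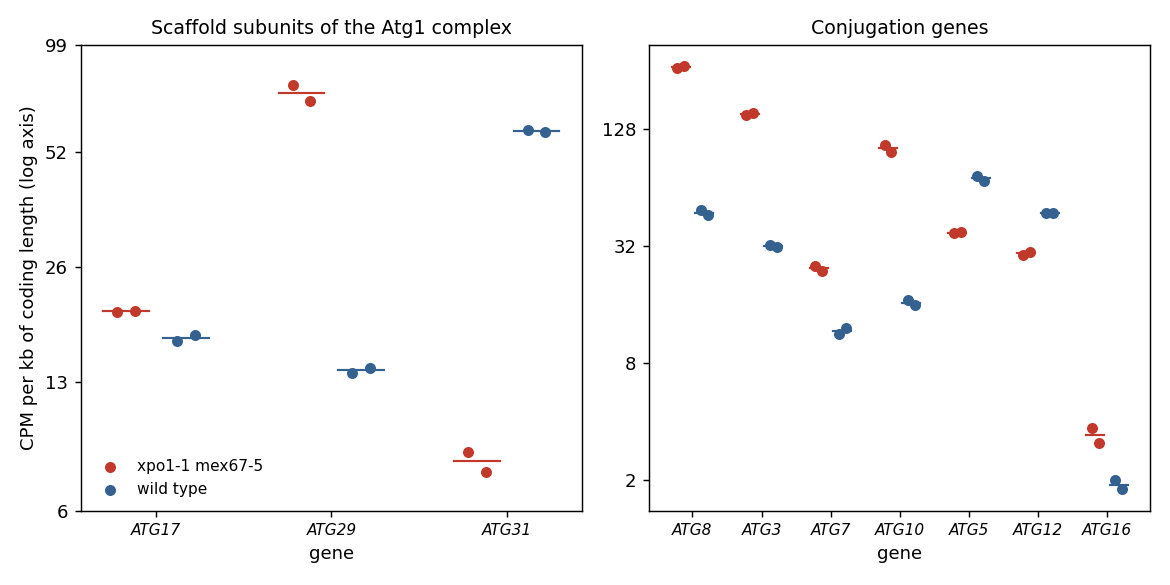
Levels per kilobase of coding length (CPM per kb, log axis) in each library, mutant left of wild type, for the scaffold genes of the Atg1 complex and for the conjugation genes. ATG29 is highest and ATG31 lowest of the scaffold genes in the mutant, the reverse of the wild type, while ATG5 and ATG12 are the only conjugation genes drawn that are lower in the mutant.

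The conjugation genes, which attach Atg8 to the membrane lipid phosphatidylethanolamine, held both the largest rise and the only fall among the 9. ATG8 (YBL078C, chromosome II, 80378 to 80731) encodes the ubiquitin-like protein that is attached. It had 93.7 and 95.7 CPM in the mutant, against 17.4 and 16.3 CPM in the wild type. All mutant levels lay far above the wild type, with a log2 change of 2.49 (SE 0.05; edgeR adjusted p = 1.5e-18) that exceeded that of 90.5% of all genes tested. ATG7 (YHR171W, chromosome VIII, 445713 to 447605) encodes the enzyme that activates both Atg8 and Atg12. Its levels were 48.0 and 45.2 CPM in the mutant and 21.4 and 22.9 CPM in the wild type. The groups did not overlap, and the log2 change was 1.07 (SE 0.05; edgeR adjusted p = 2.0e-12). ATG5 (YPL149W, chromosome XVI, 271310 to 272194) encodes the protein to which Atg12 is joined. It had 32.8 and 33.4 CPM in the mutant, against 65.0 and 61.2 CPM in the wild type. Here the mutant levels were all lower, 1.91-fold on average, a log2 change of -0.93 (SE 0.05; edgeR adjusted p = 1.6e-12), and 26.9% of all genes had a more negative change.

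The other genes of the same enzyme chain were split in a like way, with 4 of 5 higher and 1 lower. Of all genes tested, 46.8% were called higher and 46.3% lower. ATG3 and ATG10 encode the enzymes that transfer Atg8 and Atg12 to their targets. ATG3 rose 4.78-fold, to 142 ± 2.80 CPM in the mutant against 29.7 ± 0.474 CPM in the wild type (SD, n = 2 each). ATG10 rose 6.23-fold, to 51.3 ± 3.14 CPM in the mutant against 8.23 ± 0.337 CPM in the wild type (SD, n = 2 each). ATG4, the protease that trims Atg8 and frees it again, rose 1.41-fold. ATG12, whose product is joined to Atg5, was 1.61-fold lower, at 16.4 ± 0.518 CPM in the mutant against 26.5 ± 0.0437 CPM in the wild type (SD, n = 2 each). The messenger RNAs of both partners of the Atg12-Atg5 conjugate were therefore lower in the mutant, as shares of a library. The proteins were not measured. ATG16, which binds that conjugate, was called higher (log2 change 0.85, SE 0.21) on only 106 and 71 reads in the mutant and 45 and 40 in the wild type. Per kilobase, ATG12 stood at 0.772 and 0.793 times ATG5 in the mutant and at 0.644 and 0.682 times ATG5 in the wild type, a small gap between strains. ATG8 stood at 7.13 and 7.15 times ATG5 in the mutant and at 0.667 and 0.666 times ATG5 in the wild type.

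ATG9 and ATG14 act in building the membrane, and both rose. ATG9 (YDL149W, chromosome IV, 184925 to 187918) encodes the membrane protein of the vesicles that seed the autophagosome. It had 61.9 and 62.0 CPM in the mutant, against 23.8 and 23.9 CPM in the wild type. Replicates were nearly identical and the strains far apart, a log2 change of 1.38 (SE 0.05; edgeR adjusted p = 4.4e-15). Of 4 other genes of Atg9 traffic and lipid transfer, ATG2, the lipid transfer protein, rose (1.98-fold), and ATG27, ATG18 and ATG23 fell. The shares over all genes tested were 46.8% called higher and 46.3% lower. ATG27, which helps Atg9 leave the Golgi, was 2.16-fold lower, whereas ATG18 (log2 change -0.20) and ATG23 (-0.18) changed little. Under upper-quartile scaling the call of ATG23 was lost (log2 change -0.08, edgeR adjusted p = 0.091). ATG14 (YBR128C, chromosome II, 493081 to 494115) encodes the subunit that directs the lipid kinase Vps34 to autophagy. Its levels were 37.3 and 36.7 CPM in the mutant and 15.0 and 15.6 CPM in the wild type. The groups did not overlap, with a log2 change of 1.27 (SE 0.05; edgeR adjusted p = 2.2e-13). Its partners in the kinase complex differed among themselves: VPS15 rose 1.66-fold, VPS30, also known as ATG6, was 1.95-fold lower, and VPS34 (log2 change 0.07, SE 0.04) and ATG38 (0.08, SE 0.07) were not called. Both were called higher under upper-quartile scaling, at log2 changes of 0.17 and 0.18 (edgeR adjusted p = 1.4e-03 and 0.015), and VPS34 also with a minimum of 10 reads in every library (0.11, edgeR adjusted p = 0.017). The intron of ATG38 had 0 reads in every library, as did all 29 intron records of chromosome XII, so it was treated as not counted.

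The receptor gene ATG19 rose, and of 3 genes for cargo of its pathway APE1 and AMS1 rose and APE4 fell slightly. Among all genes tested, 46.8% were called higher and 46.3% lower. ATG19 (YOL082W, chromosome XV, 168727 to 169974) had 262 and 258 CPM in the mutant, against 108 and 108 CPM in the wild type. It had the highest CPM of the 9 genes in every library, and its log2 change was 1.27 (SE 0.03; edgeR adjusted p = 3.3e-16). APE1, the aminopeptidase that Atg19 carries, rose 2.46-fold, to 486 ± 8.19 CPM in the mutant against 197 ± 5.94 CPM in the wild type (SD, n = 2 each). Per kilobase it stood at 1.48 and 1.54 times ATG19 in the mutant and at 1.51 and 1.45 times ATG19 in the wild type, ratios that overlap between the strains. The alpha-mannosidase AMS1, a second cargo of Atg19, rose 4.40-fold. APE4, an aminopeptidase of the same pathway, had a log2 change of -0.14, and its call was lost under upper-quartile scaling (-0.04, edgeR adjusted p = 0.30). ATG34, the neighbour and paralog of ATG19 on chromosome XV, had 35.7 and 33.5 CPM in the mutant and 20.0 and 20.7 CPM in the wild type, a smaller rise of 1.70-fold. No 50-base stretch of ATG34 occurs elsewhere in the genome, ATG19 included.

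Among receptors for other cargo, ATG39, a receptor for autophagy of the nuclear envelope, rose 8.51-fold, to 93.8 ± 4.75 CPM in the mutant against 11.0 ± 0.677 CPM in the wild type (SD, n = 2 each). The mitochondrial receptor gene ATG32 rose 2.03-fold and the endoplasmic reticulum receptor gene ATG40 1.73-fold. CUE5, which links ubiquitinated proteins to Atg8, was 1.77-fold lower. In the remaining group of ATG genes, 5 of 9 rose, 3 fell and ATG15 was not called (log2 change 0.06, SE 0.04), though it was under upper-quartile scaling (0.16), with a minimum of 10 reads in every library (0.11) and without mutant replicate 1 (0.10). ATG41, also named ICY2, rose 268-fold, with 225895 and 182394 reads in the mutant libraries against 656 and 669 in the wild type, and only 17 genes of all tested had a larger log2 change than its 8.07. SNX4, also known as ATG24, and ATG20, which form a sorting nexin pair, rose 3.94-fold and 3.82-fold. ATG21, a lipid-binding protein of the cytoplasm-to-vacuole pathway, rose 2.46-fold and ATG26, a sterol glucosyltransferase, 1.29-fold. ATG22, ATG33 and ATG42 were 1.63-fold, 1.58-fold and 1.19-fold lower. Over all 34 autophagy genes outside the 9, 20 were called higher, 11 lower and 3 not called, with a median log2 change of 0.45. Of all genes tested, 46.8% were called higher and 46.3% lower. Among the called genes, 11 of the 34 had a log2 change of 1 or more and 2 one of -1 or less. The same held for 27.8% and 25.5% of all genes tested.

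**Figure D3:**
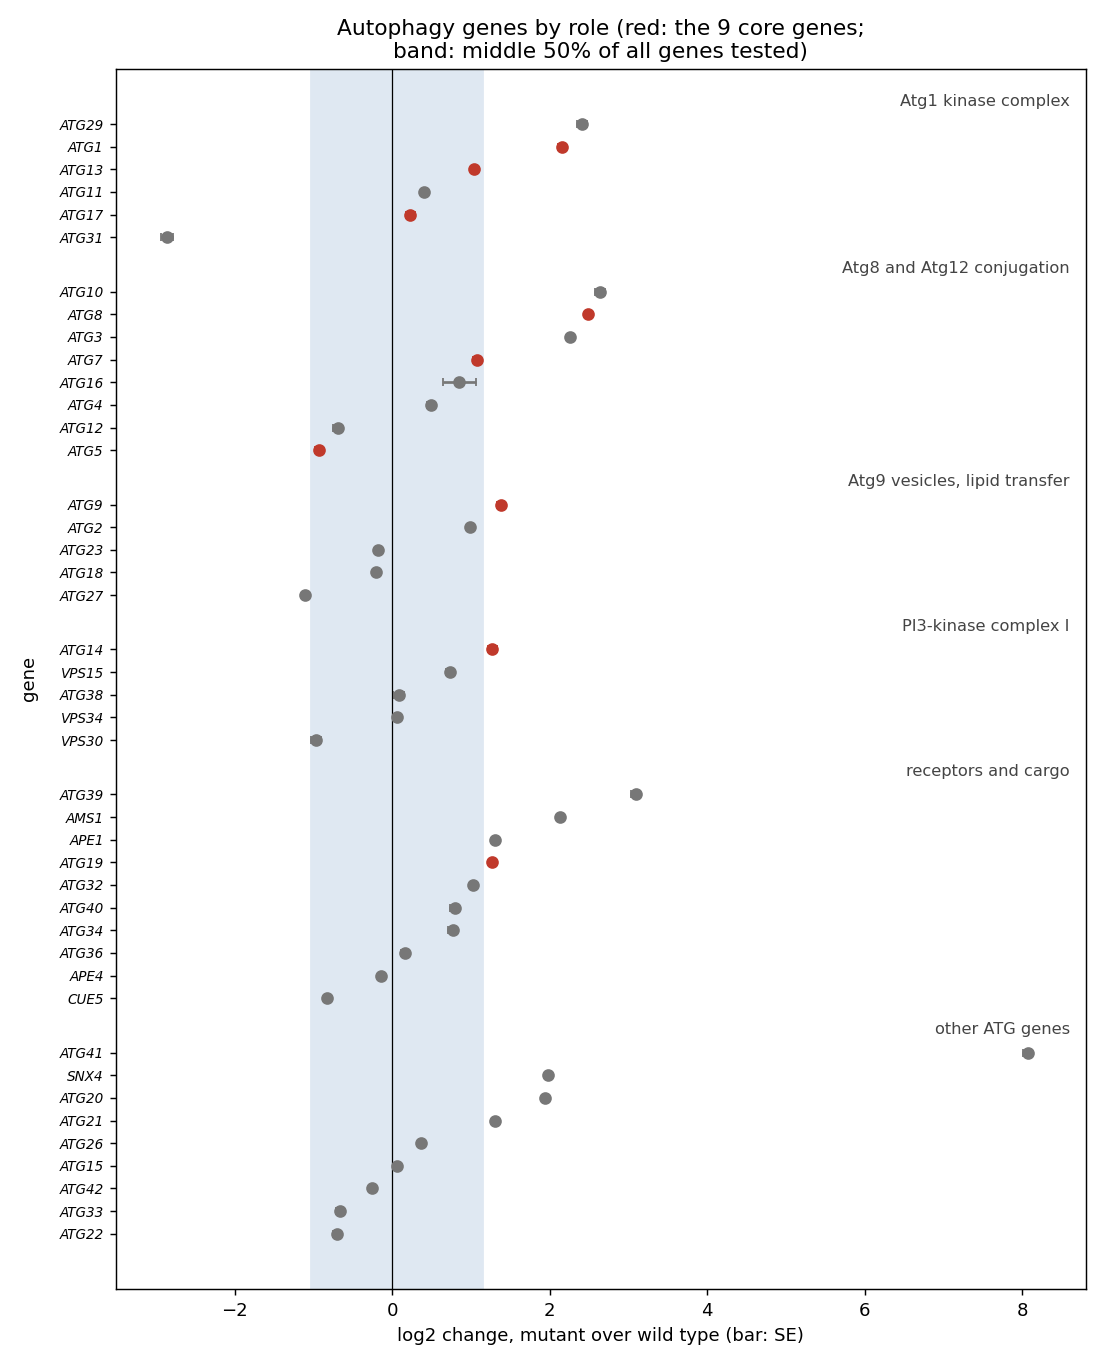
Log2 change (mutant over wild type, bars are SE) of 43 autophagy genes grouped by role, with the 9 core genes in red, the others in grey and a band for the middle 50% of all genes tested, which ran from -1.03 to 1.16. Each role holds genes on both sides of 0, ATG41 lies far to the right at 8.07, and ATG31 far to the left at -2.86.

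Per kilobase of coding length, the order of the 9 genes differed between the strains. In the mutant ATG8 was highest, at 267 ± 4.05 CPM per kb, followed by ATG19 at 208 ± 1.97 CPM per kb (SD, n = 2). ATG13, ATG1, ATG5, ATG14, ATG7, ATG9 and ATG17 followed in that order, down to 19.9 ± 0.0282 CPM per kb for ATG17, and no neighbours in the order overlapped between libraries. In the wild type ATG19 was highest at 86.3 ± 0.221 CPM per kb and ATG5 came next at 71.3 ± 3.03 CPM per kb (SD, n = 2). ATG8, ATG13, ATG17, ATG14, ATG7, ATG1 and ATG9 followed, down to 7.96 ± 0.0104 CPM per kb for ATG9, and ATG7 and ATG1 overlapped. ATG5 thus held the fifth place in the mutant and the second in the wild type, and ATG1 the fourth place in the mutant and the eighth in the wild type.

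**Figure D4:**
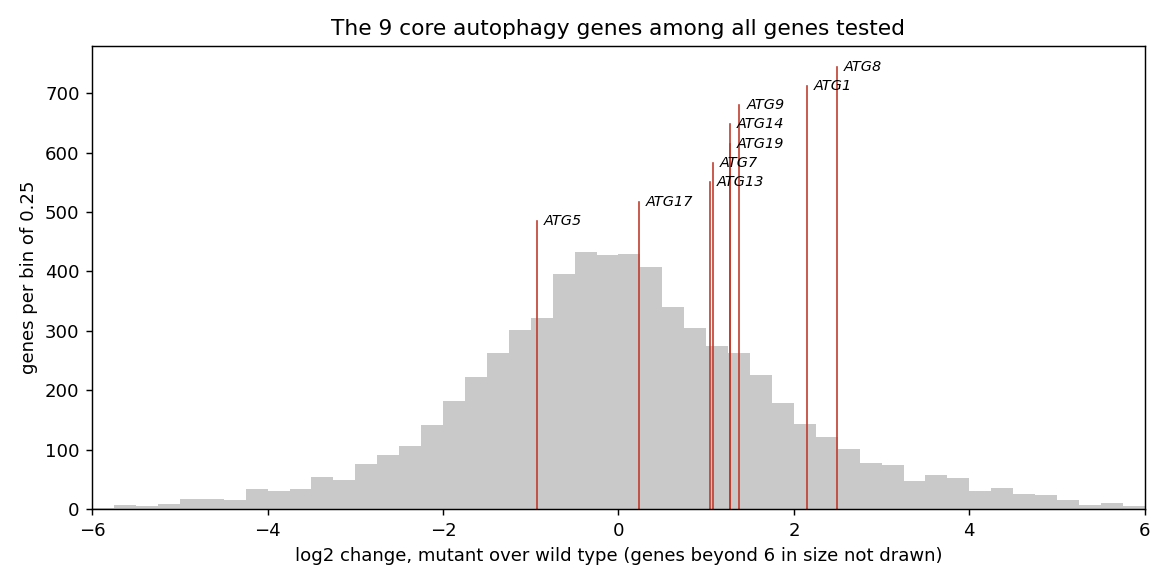
Histogram of log2 changes (mutant over wild type) of all genes tested, in bins of 0.25 and without the few genes off either end of the axis, with a red line at each of the 9 genes. ATG5 at -0.93 lies left of the centre, ATG17 at 0.23 near it, and the other 7 genes between 1.04 and 2.49.

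The promoters of 8 of the genes, all but ATG19, were searched for the motifs. The stress response element and the GATA site each matched in 2 of the 8 windows, those of ATG8 and ATG9, and in 21.6% and 14.7% of 6001 protein-coding promoters of the same length. The Ume6 core matched in ATG8, as a pair of copies that overlap each other (bases -133 to -125), against 5.13% of all promoters. The Gcn4 core matched in ATG8 and ATG13 (7.98% of all promoters), in ATG13 across the start codon, the post-diauxic shift core in ATG17 (9.33%) and the heat shock unit in ATG5 (12.9%). The windows of ATG1, ATG7 and ATG14 held none of the 6, and all 3 genes rose. Sequence beyond the 250 bases was not searched, and the next gene upstream lies 968 bases from ATG1 and 328 from ATG7. For ATG14 and ATG17 it lies 237 and 224 bases away, so their windows reach into it. Of the 34 other autophagy genes, 23.5% had the stress response element, 23.5% the GATA site and 2.94% the Ume6 core. The Gcn4 core was in 17.6% of these 34, the post-diauxic shift core in 11.8% and the heat shock unit in 8.82%. No match to one motif overlapped a match to another in the 8 windows. A match is a description of the letters and not evidence that a factor binds there.

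**Figure D5:**
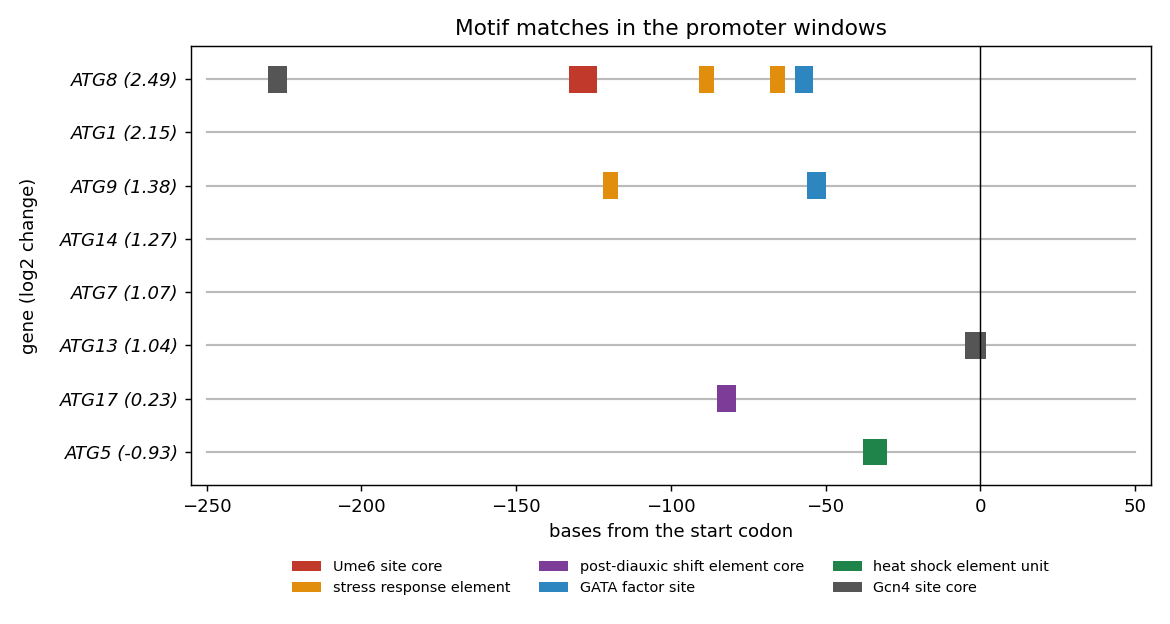
Matches to the 6 motifs in the promoter windows of 8 of the genes (all but ATG19), drawn by distance from the start codon (bases), with the genes ordered by log2 change from the top. ATG8 and ATG9 hold both the stress response element and the GATA site, ATG1, ATG14 and ATG7 hold no match, and ATG5 holds the heat shock unit.

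Of 16 genes for transcriptional regulators, 12 were called higher and 3 lower, beside 46.8% and 46.3% of all genes tested. Their median log2 change was 1.10. GIS1, a zinc finger factor of stationary phase, rose 9.16-fold, and its paralog RPH1, a repressor of ATG genes in growing cells, rose 2.91-fold. Of the GATA factors, the activators GAT1 and GLN3 rose 6.51-fold and 2.58-fold, and the repressor DAL80 rose 16.1-fold from a low level, 16.0 ± 0.418 CPM in the mutant against 0.992 ± 0.00425 CPM in the wild type (SD, n = 2 each). GCN4, the activator of amino acid synthesis, was 1.54-fold lower, and RPD3, the histone deacetylase that works with Ume6, 1.36-fold lower. UME6 itself, named after its value was seen because its site is in the ATG8 promoter, rose 1.18-fold. FYV5 was called lower, but shares 342 bases with ADF1 on the other strand, so its reads cannot be told apart from those of ADF1.

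Of 19 genes for signalling regulators, 14 were called higher and 3 lower, beside 46.8% and 46.3% of all genes tested. Their median log2 change was 0.41. RIM15, the kinase that acts on Rph1 and Ume6 when TORC1 and protein kinase A are inactive, rose 9.33-fold, to 725 ± 37.3 CPM in the mutant against 77.7 ± 1.08 CPM in the wild type (SD, n = 2 each). The TORC1 genes LST8, TOR1 and KOG1 rose 3.59-fold, 2.03-fold and 1.93-fold. PHO85, a cyclin-dependent kinase, was 2.09-fold lower and SNF4, the gamma subunit of the Snf1 kinase, 1.63-fold lower. BCY1, the regulatory subunit of protein kinase A, was 1.27-fold lower. Regulators that act on ATG messenger RNA went both ways, with 3 of 7 higher and 3 lower. XRN1, the main cytoplasmic exonuclease of messenger RNA, was 3.77-fold lower, EDC3, a decapping enhancer, 2.30-fold and LSM1, of the ring that binds messenger RNA before decapping, 1.46-fold lower. PAT1, a decapping activator, rose 2.57-fold, while DCP2, the decapping enzyme, and PSP2, an RNA-binding protein, rose 1.25-fold and 1.24-fold.

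Genes that act at the vacuole and in fusion went in both directions. Of 7 genes listed for proteases linked to the vacuole or for an inhibitor, 1, the proteinase B gene PRB1, rose (4.74-fold), and 6 fell. APE3 was 2.94-fold lower, CPS1 2.65-fold, LAP3 2.01-fold and the inhibitor gene PBI2 1.81-fold. PEP4, which encodes proteinase A, was 1.67-fold lower. Its level was 357 ± 3.48 CPM in the mutant against 595 ± 25.4 CPM in the wild type (SD, n = 2 each). The median log2 change of these 7 was -0.85. Of all genes tested, 46.8% were called higher and 46.3% lower. Of 16 genes for fusion and Rab GTPase function, 8 rose and 8 fell, with a median of 0.03. YKT6, the SNARE of autophagosome fusion, was 5.63-fold lower, YPT1, the Rab of early autophagy, 3.26-fold lower and YPT7, the Rab of the vacuole, 2.54-fold lower. SEC18, the ATPase that takes SNARE complexes apart, was 2.79-fold lower and the SNARE gene VTI1 1.72-fold lower, while SEC17, the cofactor of Sec18, rose 1.93-fold. MON1 of the complex that activates Ypt7 rose 2.18-fold, while CCZ1, its partner, fell by 0.63 on the log2 scale. TRS85, of the complex that activates Ypt1 in autophagy, rose 2.14-fold, TRS120, of a related complex, rose 1.70-fold, and the vacuolar SNARE gene VAM3 rose by 0.85 on the log2 scale.

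The libraries do not mark the strand, so the genes beside the 9 were looked at, chosen by position after the values of the 9 were known. Of the 9 genes directly upstream in RefSeq, 6 were called higher and 2 lower. Of the 9 directly downstream, 3 were called higher and 6 lower. The shares over all genes tested were 46.8% higher and 46.3% lower. ATG9 rose between RPC53 (log2 change -2.77) and NOP14 (-3.00), which both fell, and ATG7 rose next to NMD3 (-3.44). ATG8 rose next to ILS1 (0.35) and NUP170 (-0.43). ATG1 lies 650 bases from TOS3, on the opposite strand, which rose more strongly (log2 change 3.43). On the same strand, GDB1 upstream of ATG13 (3.82) and IRA2 downstream of ATG19 (2.63) also rose more than the gene beside them. ATG5 lies 99 bases from PPT2, on the opposite strand, which fell less (-0.40). The part of such neighbours in the counts of the 9 genes was not tested.

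Over the 4 libraries, the genes whose pattern lay nearest to that of ATG8, the member with the largest change, were HHY1, the polyubiquitin gene UBI4 and GIT1, a permease gene of glycerophosphoinositol. Likeness was the Euclidean distance between log2(CPM + 0.5) values centred on their mean, which was 0.0274 for HHY1, 0.0509 for UBI4 and 0.0520 for GIT1. Their log2 changes lay between 2.45 for UBI4 and 2.59 for HHY1, against 2.49 for ATG8. With 4 libraries in 2 groups, this distance is mostly set by the change between the strains.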

How the data were processed

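Read counts per gene and per intron were deposited by the authors for each library. Per the labels' protocols, poly(A) RNA was made into libraries that do not mark strand and sequenced from 1 end over 50 bp. Per the submitters' processing notes, build R64 and the tools STAR 2.5, featureCounts, bcl2fastq 2.17 and DESeq2 1.8.2 are named, with no roles stated. No source used here gives the counting rule for overlapping genes or repeats.

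All genes entered 1 fit in edgeR 4.0.16 under R 4.3.3, with group as the only term, the filterByExpr minimum, scaling by TMM and robust, two-sided quasi-likelihood F-tests (Benjamini-Hochberg adjustment at 0.05 over 6563 genes). The steps were first run on simulated counts in which most genes did not change. These data differ in that, so the run does not check the scaling here. A chi-square test found replicates further apart than sampling noise allows (7.15 per degree of freedom in the mutant, 10.6 in the wild type), so each library was 1 sample. Coding lengths, positions and promoters came from RefSeq R64. Alternatives were other scalings, filters and thresholds, DESeq2 1.42.0, a replicate block, a shorter promoter window and leaving out each library. The 9 genes and the lists were chosen with earlier results of these data known. From each list, the 5 called genes with the largest change in each direction, or all if fewer, were named, plus ATG34, MEX67, CRM1, genes overlapping a named gene, and 3 genes most like ATG8; VPS34, ATG38, ATG15, UME6, CCZ1, APE4, NUP170 and the other neighbours were named after their values were seen. The promoter of ATG19 and 1 signalling gene that this rule names are not reported here. Figures were drawn with matplotlib 3.10.9.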

Additional observations from a re-analysis of the deposited data

How the results depend on the processing

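Each of the 9 genes kept its direction and its call in all 12 alternatives to the test (scaling, tool, filter, replicate block, estimation and leaving out each library). The log2 change of ATG8 ranged from 2.44 to 2.59, that of ATG1 from 2.08 to 2.25, that of ATG5 from -0.98 to -0.83 and that of ATG17 from 0.20 to 0.33, whose largest edgeR or DESeq2 adjusted p was 0.013. Calls were common among all genes, with 3070 higher and 3039 lower of 6563 in the main fit. With DESeq2 2996 were called higher and 2983 lower of 6827, so a call is not particular to the 9. Upper-quartile scaling moved the median of all genes by 0.10 on the log2 scale, under which ATG17, the smallest rise, was at its highest value. Under that scaling 3247 of all genes were called higher and 2865 lower. Lowering the fold threshold to a log2 change of at least 0.5 put 1 of the 9 genes, ATG5, past it downward, where 0 passed at 1. The share of all genes past 0.5 was not counted. For the other 34 autophagy genes, upper-quartile scaling gave 23 higher and 9 lower (VPS34, ATG38 and ATG15 gained a call, ATG23 and APE4 lost one), and the other 11 alternatives 19 to 22 higher and 11 lower. DESeq2 lost the call of ATG36. The log2 change of ATG38, not called, ranged from -0.00859 to 0.16 when 1 library was left out, below 0 only without mutant replicate 1. Only the bases before the start codon left 1 promoter of the 8 searched, that of ATG8, with the Gcn4 core. The replicate numbers share only a number: deviations of same-numbered libraries had a correlation of -0.02 across 5520 genes, and with the replicate block 8 of the 9 genes were called higher and 1 lower, and 20 and 11 of the other 34. The fewest reads of any of the 9 genes in a library were 745, while ATG16 had at most 106.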
